A study of Mus musculus with 2 samples.

Results

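The collagen genes were taken as every feature whose mouse symbol reads Col, a number, the letter a and a number, which found 44 genes among 32285 features. Of these, 11 encode fibrillar collagen chains, 8 basement membrane chains and 25 other chains. They were read in single-cell RNA-seq of the mouse embryonic stem cell line D3 on day 6 of cardiomyocyte differentiation. One library came from WT cells, called the control here, and 1 from cells with a Zbtb16 knockout. Zbtb16 encodes a zinc finger transcription factor. Both libraries share the line, the differentiation and the day, and the sources used here do not say whether the knockout is 1 clone. With 1 library per group there is no replicate check, no difference was tested, and every interval is an exact 95% interval that covers counting error only.

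Collagens are secreted proteins whose chains wind in groups of 3 into a triple helix. Fibrillar chains such as those of types I, III and V build the fibres of connective tissue. Type IV chains form the flat network of basement membranes under endothelium and endoderm, and type XVIII is a proteoglycan of the same membranes. The other chains decorate fibres, form beaded filaments or sit in the cell membrane. In the early embryo, endoderm and vessels lay down type IV collagen, and mesenchyme makes the fibrillar types.

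A pair of collagen sequences is shown here. The genes Col4a1 and Col4a2, whose chains join in 1 molecule, lie head to head on chromosome 8, with Col4a2 on the plus strand. In RefSeq (build GRCm38.p6, chr8:11312801-11312830, plus strand) their annotated starts overlap by 22 bases, shown here in capitals:
Col4a1 and Col4a2 starts: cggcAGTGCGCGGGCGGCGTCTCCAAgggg
The levels of this pair are compared across cell states below, and the part of the shared start in them was not tested. Col4a6 and Col4a5 form another such pair, with starts 1343 bases apart. Col3a1, the collagen with the highest level per length in both libraries, has a TATAAA match from 117 to 112 bases before its RefSeq start, in capitals in the 250 bases upstream (chr1:45311288-45311537, plus strand, GRCm38.p6):
Col3a1 upstream: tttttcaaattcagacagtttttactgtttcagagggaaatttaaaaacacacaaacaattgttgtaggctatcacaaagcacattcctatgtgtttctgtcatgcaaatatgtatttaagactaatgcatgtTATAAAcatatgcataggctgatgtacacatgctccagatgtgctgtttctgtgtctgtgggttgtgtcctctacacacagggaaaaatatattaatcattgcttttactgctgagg
RefSeq promoter entries were matched for 35 of the 44 genes, in 38 windows of 250 bases before a start. TATAAA was found on either strand in 13.2% of the collagen windows and 12.4% of all 32851 windows, and CCAAT in 34.2% and 33.8%. GGGCGG was found in 57.9% and 32.7%. These matches describe letters in a window and were not set against the expression data.

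The control library held 6354 cells with a median of 37324 UMIs, and the knockout library 9449 cells with a median of 30513. A UMI marks 1 captured RNA molecule, and CPM is UMIs per 1000000 UMIs of the cells summed. The 2 libraries shared 16 cell barcodes. Zbtb16 stood at 22.2 CPM in the control (21.7 to 22.8, 6507 UMIs) and 0.994 CPM in the knockout (0.891 to 1.11, 341 UMIs). The sources used here do not give the deleted part of the gene. Where 2 values are joined by "against", the control comes first. Cells were placed in states by the summed CPM of marker genes, none of them a collagen. A gated state is therefore a range of marker levels, not a cell type. Endothelial-gated cells numbered 268 in the control and 398 in the knockout, visceral endoderm-gated cells 107 and 202, and mesenchymal-gated cells 643 and 4164. No gate was passed by 3000 and 4144 cells. Cardiomyocyte-gated cells (1301) and cardiac progenitor-gated cells (982) were used in the control only, and pluripotent-gated (193) and posterior mesoderm-gated cells (260) in the knockout only, since the other library had fewer than 50 of each. In the knockout 17 cells passed the cardiomyocyte gate and 30 the cardiac progenitor gate. Near the level of their gate, from 0.8 to 1.25 times, lay 578 control and 2014 knockout cells for the mesenchymal gate. For the endothelial gate these were 21 and 47 cells, and for visceral endoderm 3 and 3. They were 499 cells for the cardiomyocyte and 980 for the cardiac progenitor gate of the control, and 160 for the posterior mesoderm and 10 for the pluripotent gate of the knockout.

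Over all cells, collagen RNA made up 0.0788% of control UMIs (0.0784 to 0.0791) and 0.133% of knockout UMIs (0.132 to 0.133). Of the collagen UMIs, fibrillar chains made up 53.3% in control and 58.2% in knockout cells, and basement membrane chains 35.1% and 33.1%. Genes that reached 5 CPM in at least 1 of the libraries are called measured, and 23 of the 44 were: 8 fibrillar, 5 basement membrane and 10 other chains. Of the 23, 12 were higher in the knockout by 1.5-fold or more and 3 were lower by as much, called by size and with no test. Among all 10289 measured genes, taken by the same filter, 12.7% were that much higher and 6.75% that much lower. Of the collagens so called, Col6a3, Col12a1 and Col14a1 reached 5 CPM in the knockout only and Col2a1 in the control only. The median log2 ratio of CPM plus 1, knockout over control, was 0.73 over the 23 collagens and 0.02 over all measured genes. Mesenchymal-gated cells were 10.1% of control and 44.1% of knockout cells, and these sums do not separate more such cells from more collagen RNA in each.

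**Figure D1:**
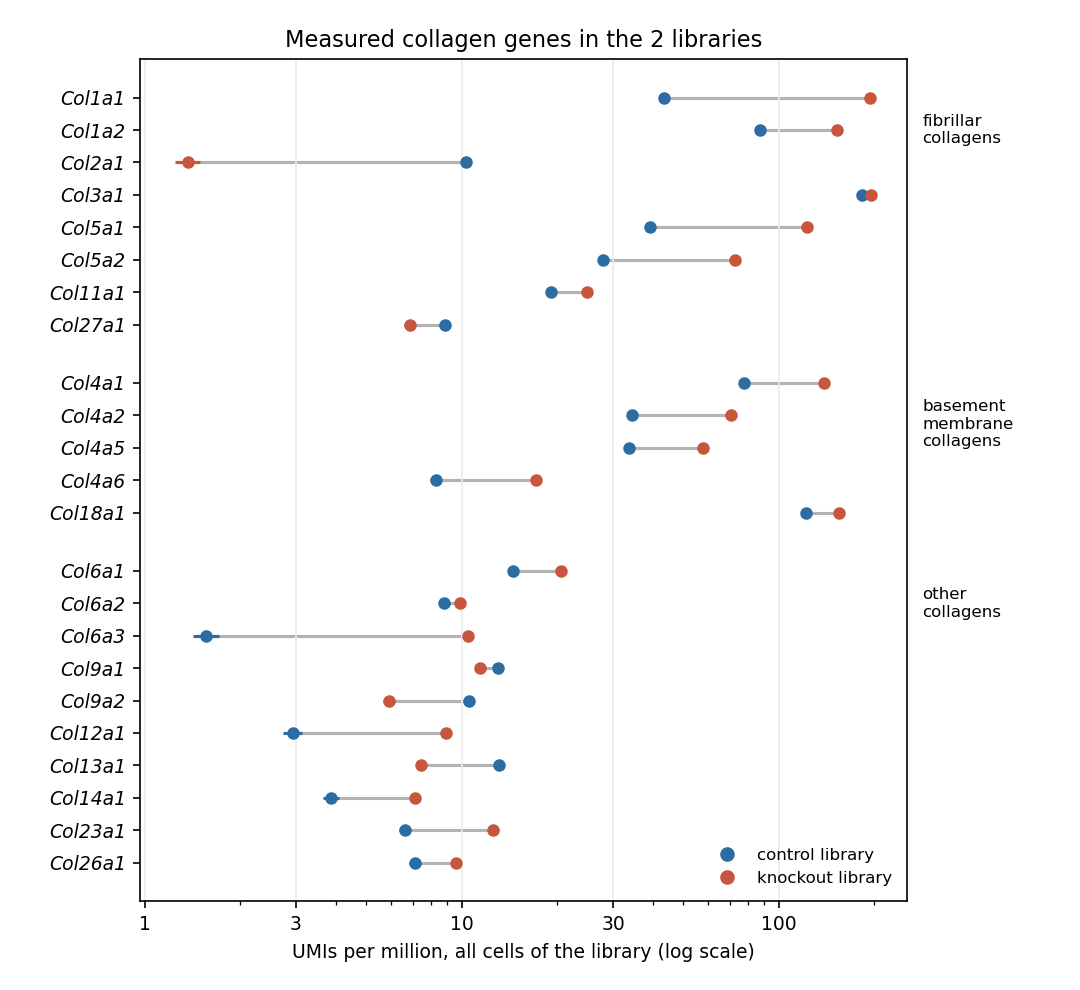
Levels of the 23 measured collagen genes in CPM (log axis) over all cells of each library, with exact 95% counting intervals that are mostly narrower than the points. Col1a1 moves from 43.6 in the control to 194 in the knockout, Col3a1 from 183 to 196, and Col2a1 lies far lower in the knockout, at 1.37 against 10.3.

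Of the 8 measured fibrillar chains, 4 passed 1.5-fold upward in the knockout and 1 downward, with a median log2 ratio of 0.58, just under 1.5-fold. Col1a1, the alpha 1 chain of type I collagen and the main fibre protein of connective tissue, stood at 43.6 CPM in control cells (42.8 to 44.3) and at 194 CPM in knockout cells (192 to 195), a log2 ratio of 2.13. Its partner chain Col1a2 stood at 87.0 and 153 CPM, a log2 ratio of 0.81. The chains of type V collagen, which starts and thins fibres, were both higher. Col5a1 stood at 39.1 against 123 CPM and Col5a2 at 27.9 against 73.0 CPM, log2 ratios of 1.62 and 1.35. Col3a1, the type III chain of soft, stretchable tissue, stood at 183 against 196 CPM, a log2 ratio of 0.10. Col11a1, a chain of type XI collagen found in cartilage fibrils and early mesenchyme, stood at 19.1 against 24.9 CPM.

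Levels were also divided by transcript length in kilobases. A UMI marks 1 captured molecule, so this scale does not rank genes by their number of molecules. Col3a1 was first in both libraries in plain CPM and on this scale, at 32.9 and 35.2 CPM per kb. The order behind it differed. In the control Col18a1 (21.7 CPM per kb), Col1a2 (16.3) and Col4a1 (11.8) came next, and Col1a1 had 7.35. In the knockout Col1a1 (32.7), Col1a2 (28.6) and Col18a1 (27.7) came next, while in plain CPM Col18a1 (155) stood before Col1a2 (153).

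All 5 measured basement membrane chains had a higher level in the knockout library, 4 of them by at least 1.5-fold, and the median log2 ratio was 0.82. Col4a1 stood at 77.9 CPM in control cells (76.9 to 78.9) and at 138 CPM in knockout cells (137 to 140). Its partner Col4a2 stood at 34.4 against 70.5 CPM, a log2 ratio of 1.01. Col4a5, a chain of the second type IV network, stood at 33.8 against 57.6 CPM, a log2 ratio of 0.75, and Col4a6 had a log2 ratio of 0.97. Col18a1, whose end fragment is endostatin, was within 1.5-fold, at 121 against 155 CPM.

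Of the 10 other chains, 4 passed 1.5-fold upward and 2 downward, and the median log2 ratio was 0.43. Col6a1, a chain of the beaded filaments around cells, stood at 14.5 against 20.6 CPM. Col23a1, a transmembrane collagen, stood at 6.64 against 12.5 CPM, a log2 ratio of 0.82. The genes in the rest of this paragraph were singled out after their values were seen. Col6a3, the long type VI chain, stood at 1.57 against 10.4 CPM, a log2 ratio of 2.16, and Col12a1, which binds to fibre surfaces, at 2.93 against 8.89 CPM. The 3 collagens that were at least 1.5-fold lower were Col2a1, the main fibrillar chain of cartilage, at 10.3 against 1.37 CPM, Col9a2, a chain of a cartilage fibril collagen, at 10.5 against 5.89 CPM, and Col13a1, a transmembrane collagen, at 13.1 against 7.45 CPM.

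Collagen transcripts are long, and the library ratio followed transcript length across the whole table. Over 10286 measured genes the Spearman rho of log2 ratio with length was 0.45, a relation across genes, which are not independent replicates. The shortest 25% of genes had a median log2 ratio of -0.19 and the longest 25% had 0.31. Measured collagens ran from 2781 bases (Col26a1) to 11511 bases (Col12a1), with a median of 5930 against 3162.5 for all measured genes, and 17 of the 23 lay in the longest 25%. Among the 23 collagens themselves rho was 0.64. The smooth trend on length and GC content gave them values between -0.11 and 0.47.

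**Figure D2:**
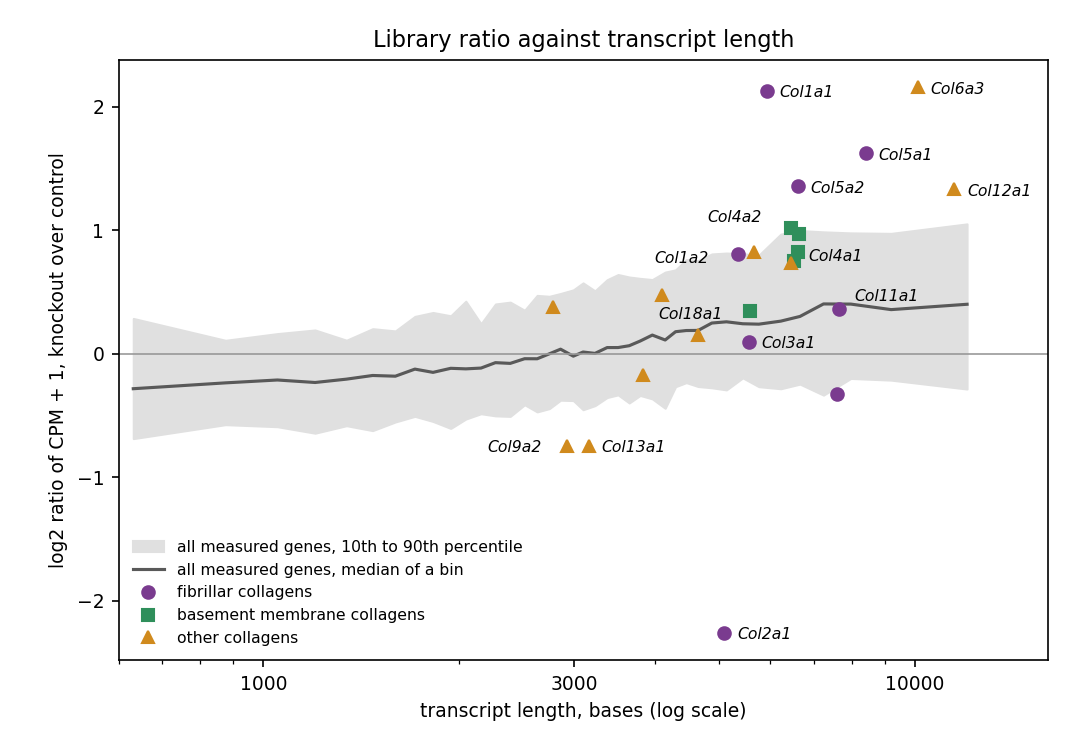
The log2 ratio of CPM plus 1, knockout over control, against transcript length in bases (log axis). The line and band are the median and the 10th to 90th percentile of all measured genes in 40 bins by length, and the points are the 23 measured collagens by type. Col1a1, Col5a1, Col5a2, Col6a3 and Col12a1 lie above the band, Col4a2 and Col23a1 at its upper edge, and Col2a1, Col9a2, Col13a1 and Col27a1 below it, while Col3a1 and Col18a1 lie within it.

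With both trends subtracted, 9 of the 23 collagens were at least 1.5-fold higher and 3 lower, beside 7.26% and 7.25% of all measured genes, and the median was 0.44. Col1a1 then had a log2 ratio of 1.92, Col5a1 1.33, Col5a2 1.01 and Col1a2 0.61. The fibrillar median was then 0.28 and the basement membrane median 0.57, both under 1.5-fold. Of the type IV chains Col4a2 (0.80) and Col4a6 (0.68) stayed past 1.5-fold, and Col4a1 (0.57) and Col4a5 (0.44) did not. Col3a1 changed sign, to -0.15. The part of length in the collagen ratios was not tested beyond this correction.

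The states differed in which collagens they held. Fibrillar chains were 76.1% of collagen UMIs in mesenchymal-gated cells of the control and 68.3% in those of the knockout. In endothelial-gated cells basement membrane chains took 78.6% and 86.9%, and in visceral endoderm-gated cells 77.8% and 90.2%. Total collagen was 0.155% of UMIs in control and 0.171% in knockout mesenchymal-gated cells. It was lowest in the pluripotent-gated cells of the knockout, at 0.0324%, where Col18a1 stood at 151 CPM and the next, Col1a1, at 30.1 CPM.

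**Figure D3:**
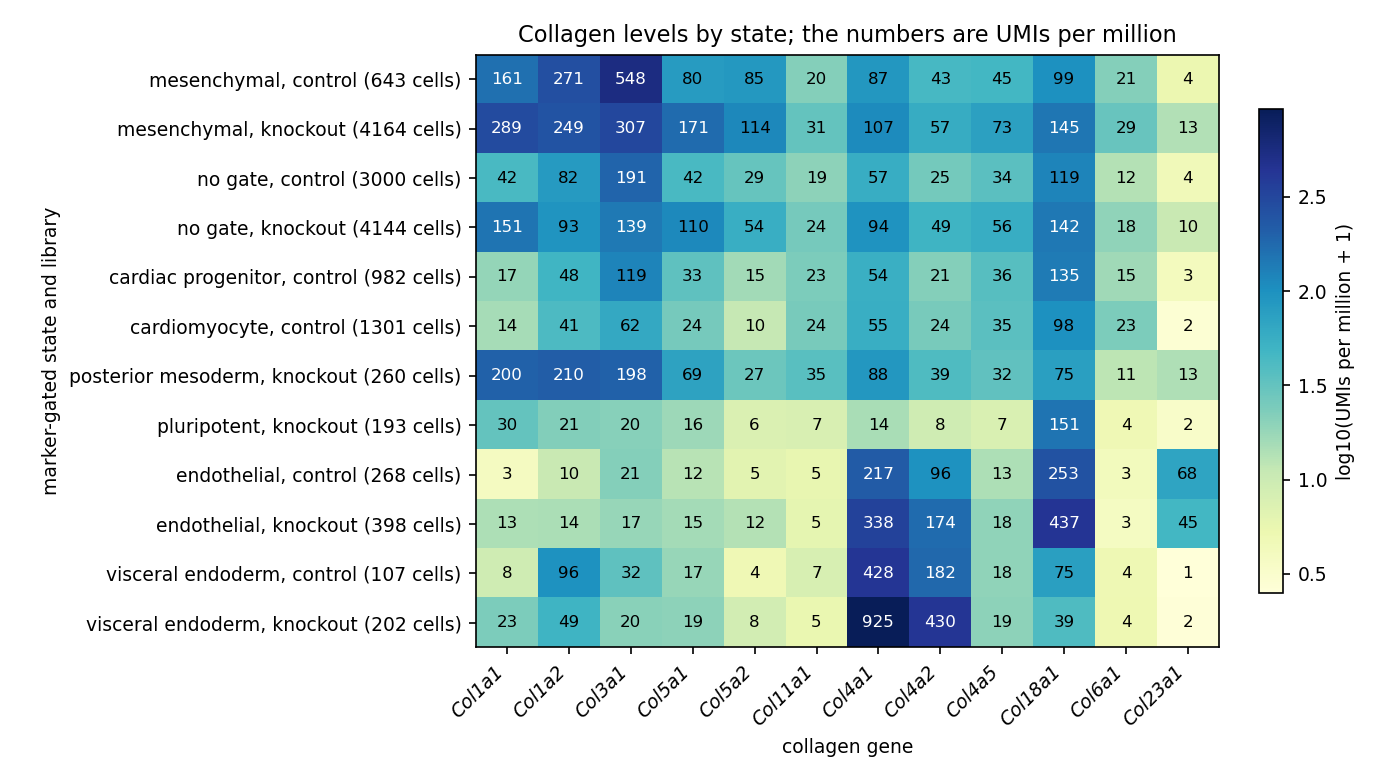
Levels of 12 collagens in each marker-gated state and library, in CPM, with colour on a log10 scale. Columns Col1a1 to Col11a1 are fibrillar, Col4a1 to Col18a1 basement membrane, and the last pair other chains. Col3a1 peaks at 548 in control mesenchymal-gated cells, Col18a1 at 437 in knockout endothelial-gated cells and Col4a1 at 925 in knockout visceral endoderm-gated cells.

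Among control states Col3a1 was highest in the mesenchymal gate, at 548 CPM (540 to 556). It followed at 191 CPM in cells with no gate, 119 in cardiac progenitor-gated, 61.6 in cardiomyocyte-gated, 32.4 in visceral endoderm-gated and 20.7 CPM in endothelial-gated cells. The counting intervals of no 2 of these states overlapped. Col1a1 ran in the same order, from 161 CPM down to 2.90 CPM. In the knockout it was highest in the mesenchymal gate, at 289 CPM, and next in posterior mesoderm-gated cells, at 200 CPM (191 to 210). Those cells, gated on posterior Hox genes, Cdx2 and Pitx1, held type I and III collagen at like levels, with Col1a2 at 210 and Col3a1 at 198 CPM.

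Heart states of the control held less type I collagen RNA than mesenchymal-gated cells. Col1a1 stood at 14.3 CPM in cardiomyocyte-gated and 17.2 CPM in cardiac progenitor-gated cells, beside 161 CPM in mesenchymal-gated cells. Col1a2 was higher than Col1a1 in the heart states, at 40.8 and 47.8 CPM, beside 271 CPM in mesenchymal-gated cells. The leading collagen of the heart states per kilobase was Col18a1, with Col3a1 second. Some low collagens had their highest control level in these states, and all were singled out after their values were seen. Col2a1 stood at 17.7 CPM in cardiomyocyte-gated cells and 15.9 CPM in cardiac progenitor-gated cells against 3.00 CPM in mesenchymal-gated cells. Col13a1 stood at 22.7 and 20.6 CPM against 5.40 CPM, and Col6a2 at 18.4 and 10.1 CPM against 8.21 CPM. Of 7 chondrocyte markers, 3 were measured in the control sum (Sox9, Hapln1 and Sox5), and Acan, Matn1, Comp and Cnmd stood at 0.021, 0.041, 0.18 and 0.021 CPM.

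Of the gated states of the knockout, posterior mesoderm-gated cells had the highest level of some low chains, again singled out after their values were seen. Col9a1 stood there at 27.4 CPM against 10.6 CPM in the mesenchymal gate, Col9a2 at 15.4 against 5.15 CPM and Col14a1, which binds fibre surfaces, at 15.7 against 6.27 CPM. These levels are not particular to that state. Within the mesenchymal gate, 58 cells led by the marker Prrx1, described below, held Col9a1 at 64.9 and Col14a1 at 73.4 CPM. Sox9, a regulator of cartilage genes, stood at 52.1 CPM in posterior mesoderm-gated cells and 20.97 CPM over the knockout library. The other chondrocyte markers measured there went the other way, Hapln1 at 39.2 and 115.7 CPM and Sox5 at 15.8 and 35.4 CPM, and Acan, Matn1, Comp and Cnmd had 4, 0, 3 and 0 UMIs in these cells. Their part in the collagen levels was not tested.

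Endothelial-gated cells were set apart by Col23a1. It stood there at 67.8 CPM in the control (63.8 to 72.0), against 1.5 to 4.25 CPM in the other 5 control states, and at 45.1 CPM in the knockout. In the control 54.2% of all Col23a1 UMIs lay in these cells, which are 4.22% of the library. After each cell was thinned to 15000 UMIs, 61.6% of control and 43.7% of knockout endothelial-gated cells had a Col23a1 UMI. Before thinning these shares were 89.6% and 77.9%, and those of visceral endoderm-gated cells, with median depths of 49759 and 46304.5 UMIs, were 8.41% and 6.93%. In the knockout Col23a1 was also seen outside endothelium, at 12.8 CPM in both mesenchymal-gated and posterior mesoderm-gated cells.

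Within mesenchymal-gated cells, 9 of 22 measured collagens passed 1.5-fold upward in the knockout and 1 downward, beside 11.1% and 3.55% of all genes measured there. The fibrillar median was 0.42 before and 0.05 after the length and GC correction. Col1a1 stood at 161 CPM in control cells (157 to 166) and at 289 CPM in knockout cells (287 to 292), a log2 ratio of 0.84, and Col5a1 at 79.9 against 171 CPM, a log2 ratio of 1.08. Col1a2 stood at 271 against 249 CPM and Col5a2 at 84.9 against 114 CPM, both within 1.5-fold. Col3a1 was the 1 lower, at 548 against 307 CPM (304 to 310), a log2 ratio of -0.83, or -1.10 after the correction. These cells held 32.0% of all control and 65.9% of all knockout Col3a1 UMIs.

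The share of cells with a UMI showed the same directions. After thinning, 58.9% of control and 78.6% of knockout mesenchymal-gated cells had a Col1a1 UMI, and 96.0% and 77.7% a Col3a1 UMI. Before thinning the Col1a1 shares were 76.5% and 87.5%, and those of Col3a1 98.8% and 87.5%. In endothelial-gated cells, which should lack type I collagen, Col1a1 shares were 4.1% and 9.05% after thinning. Median depths before thinning were 40264 and 29176.5 UMIs in the mesenchymal and 50804 and 38791 UMIs in the endothelial gate. The 10% of mesenchymal-gated cells with the highest Col3a1 level held 20.7% of the gate's Col3a1 UMIs in control and 35.5% in knockout cells.

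The makeup of this gate differed between the libraries. Of its 8 markers Postn stood at 129 against 334 CPM, and Tdo2 at 261 against 165 CPM. Smooth muscle markers summed to a median of 756 and 1206 CPM per cell, and cardiomyocyte markers to 415 and 130 CPM. Their part in the collagen differences was not tested. The gate was therefore split by the marker with the most UMIs in each cell, a split added after the data were seen. Col3a1 was lower in the knockout in each of the 3 subsets that had 50 cells in both libraries. It stood at 711 against 343 CPM in Lum-led cells, 684 against 392 CPM in Postn-led cells and 359.5 against 183 CPM in Tdo2-led cells. Col1a1 was higher in each, at 205 against 303, 259 against 373 and 99.96 against 181 CPM, past 1.5-fold in Tdo2-led cells only. Its partner Col1a2 was lower in each, at 330 against 241, 415 against 363 and 191 against 149 CPM. The Prrx1-led cells of the knockout, 58 in number, held Col14a1 at 73.4 CPM and Col9a1 at 64.9 CPM.

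**Figure D4:**
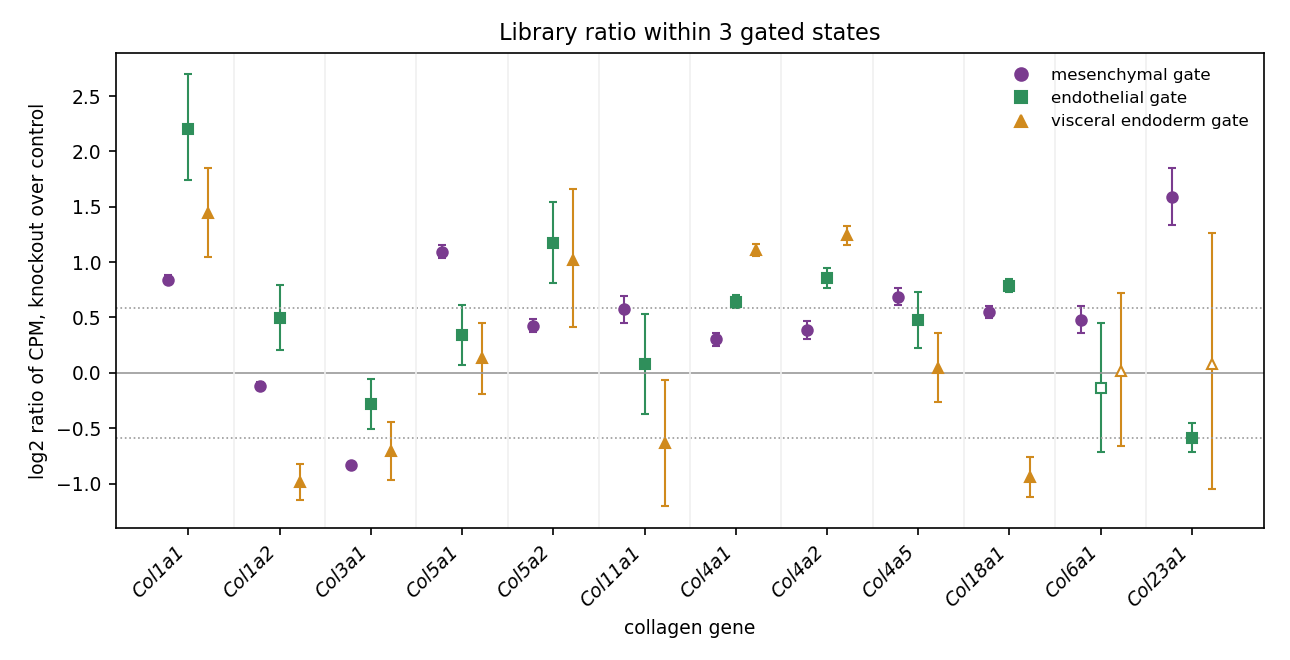
The log2 ratio of CPM (without the added 1), knockout over control, for 12 collagens within 3 gated states, with exact 95% counting intervals and dotted lines at 1.5-fold. Open symbols are genes under 5 CPM in both libraries of that state. Col3a1 is lower in the mesenchymal gate, Col4a1 and Col4a2 are higher in all 3 gates, and Col18a1 is higher in the endothelial gate and lower in the visceral endoderm gate.

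Within endothelial-gated cells, 6 of 14 measured collagens passed 1.5-fold upward and 1 downward, beside 10.9% and 5.67% of all genes measured there. By ratio the highest were Col1a1 (1.88) and Col5a2 (1.04), and by level per kilobase Col18a1, Col4a1 and Col4a2, chains of vessel basement membrane. Col18a1 stood at 253 CPM in control cells (245 to 261) and at 437 CPM in knockout cells (428 to 447), a log2 ratio of 0.79. Col4a1 stood at 217 against 338 CPM and Col4a2 at 96.1 against 174 CPM, log2 ratios of 0.64 and 0.85. The basement membrane median was 0.79, and 0.51 after the length and GC correction, with Col18a1 at 0.64 and Col4a2 at 0.66 still past 1.5-fold and Col4a1 at 0.43 not. Col23a1 went the other way, with a log2 ratio of -0.58, just under 1.5-fold, and -0.78 after the correction, past 1.5-fold. Col14a1 was the 1 lower collagen before the correction, at 6.57 against 2.1 CPM.

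Type I, III and V chains in endothelial-gated cells were set beside their level in free RNA, read as the CPM in barcodes of 10 to 100 UMIs. Col1a1 stood at 2.90 against 13.4 CPM, which is 5.43% and 5.37% of its free RNA level. Col3a1 stood at 7.98% and 6.25%, Col5a1 at 25.7% and 12.1%, Col1a2 at 8.72% and 6.66% and Col5a2 at 16.8% and 19.6%. Col4a1 and Col18a1 stood at 286% and 222% of theirs in the control. Among the other measured fibrillar chains Col27a1, singled out after its values were seen, stood at 82.3% and 87.8%. The free RNA level itself was 53.3 against 249 CPM for Col1a1 and 32.6 against 63.0 CPM for Col5a2. Its part in the Col1a1 and Col5a2 ratios counted above as higher was not tested. These 2 ratios are not read as a difference in endothelial expression.

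Within visceral endoderm-gated cells, 4 of 13 measured collagens passed 1.5-fold upward and 4 downward, beside 13.7% and 6.87% of all genes measured there. Col4a1 stood at 428 CPM in control cells (414 to 443) and at 925 CPM in knockout cells (907 to 942), a log2 ratio of 1.11. Col4a2 stood at 182 against 430 CPM, a log2 ratio of 1.24, and both kept over 1.5-fold after the correction, at 0.85 and 1.02. The other higher ones, Col1a1 and Col5a2, stood at 9.11% and 12.4% of their free RNA level in the knockout. The lower ones were Col18a1, Col1a2, Col2a1 and Col3a1. Of their free RNA levels Col18a1 stood at 66.0% and 25.4%, Col1a2 at 86.8% and 23.7% and Col3a1 at 12.5% and 7.29%. Col2a1 rested on 77 and 49 UMIs. The part of free RNA in the higher and lower ratios was not tested. Col18a1 stood at 75.1 CPM in control cells (69.2 to 81.4) and at 39.1 CPM in knockout cells (35.6 to 42.9), and Col4a5 stood at 18.2 against 18.8 CPM. The basement membrane median over these 5 chains was 0.13, or -0.16 after the correction, with members on both sides of 0.

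Parietal endoderm, the other extraembryonic endoderm, is known for a thick basement membrane, so its 7 markers were read in the same cells. In both libraries 6 of the 7 were measured, and Thbd had 0 UMIs in control and 2 in knockout cells. Sparc stood at 1121 against 2118 CPM, Lamb1 at 81.0 against 244 CPM, Lama1 at 22.1 against 64.4 CPM and Fst at 19.6 against 77.9 CPM. Plat stood at 42.1 against 44.2 CPM and Gata6 at 170 against 148 CPM. The sum of the 7 markers ran from 475 to 4788 CPM per cell in the control, with a median of 1251, and from 360 to 11669.5 CPM in the knockout, with a median of 2416. Higher levels of some of them were not limited to this gate. In mesenchymal-gated cells Sparc stood at 1021 against 1236 CPM, Lamb1 at 60.7 against 124 CPM and Lama1 at 14.6 against 40.2 CPM. Plat stood there at 39.3 against 37.4 CPM and Gata6 at 280 against 222 CPM, and Fst and Thbd were under 5 CPM. The part of these markers in the type IV difference was not tested.

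Col1a2 in the control's visceral endoderm-gated cells stood apart from the other type I chain. It was at 96.2 CPM (89.5 to 103), 86.8% of its free RNA level, while Col1a1 was at 15.6% and Col3a1 at 12.5% of theirs. After thinning, 51.4% of these cells had a Col1a2 UMI and 2.80% a Col1a1 UMI (76.6% and 12.1% before thinning). The Col1a1 to Col1a2 ratio of UMIs was 0.087 in these cells and 0.48 in free RNA. The part of free RNA in these levels was not tested. In the knockout Col1a2 stood at 48.5 CPM, 23.7% of its free RNA level, with 37.6% of cells, and Col1a1 at 9.11%.

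Among cells with no gate, Col3a1 and Col9a1 had log2 ratios of the opposite sign to those of the whole libraries, at -0.46 against 0.10 and 0.04 against -0.17 (no gate first). Of 23 measured collagens, 11 passed 1.5-fold upward and 2 downward, beside 12.3% and 6.06% of all genes measured there. Col1a1 stood at 41.9 against 151 CPM, Col5a1 at 41.8 against 110 CPM and Col3a1 at 191 against 139 CPM. When the 4 states found in both libraries were weighted by their control share of UMIs, an alternative added after the data were seen, Col1a1 had a log2 ratio of 1.46 and Col5a1 1.27. Col1a2 then had 0.04 and Col3a1 -0.59, and the fibrillar median was 0.21.

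Chains that join in 1 molecule were then read as ratios of UMIs within each sum, which compare sums with each other and not the amounts of the 2 chains. Col4a1 to Col4a2, the pair with overlapping starts, lay between 1.65 and 2.61 in the 12 sums of library and state, with a median of 2.19. That held although the level of Col4a1 ran from 13.8 to 925 CPM over the same sums. In each of the 4 states found in both libraries the knockout ratio was a little lower, as in endothelial-gated cells, at 2.26 (2.12 to 2.40) and 1.94 (1.86 to 2.03). The intervals overlapped in the mesenchymal gate and in visceral endoderm-gated cells.

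Type I collagen behaved otherwise. The Col1a1 to Col1a2 ratio was 0.50 (0.49 to 0.51) over the control cells and 1.27 (1.25 to 1.28) over the knockout cells. The 6 control states ran from 0.087 to 0.60 with a median of 0.36, and the 6 knockout states from 0.47 to 1.63 with a median of 1.07. In each state found in both libraries the knockout ratio was the higher, at 0.60 against 1.16 in the mesenchymal gate and 0.51 against 1.63 with no gate. Free RNA had 0.48 and 1.22. Col1a1 stood at 5.43% and 5.37% of its free RNA level in endothelial-gated and at 15.6% and 9.11% in visceral endoderm-gated cells. The control sums there held 45 and 67 Col1a1 UMIs. The part of free RNA in the ratios of these 2 states was not tested, and they are not read as a difference in expression. Col5a1 to Col5a2 had a median of 2.16 in control and 2.20 in knockout states but ran from 0.94 to 4.39. Col4a5 to Col4a6, the other head-to-head pair, ran from 2.56 to 4.98. Col6a1 to Col6a2 ran from 1.23 to 2.75 over 11 sums and Col9a1 to Col9a2 from 0.29 to 2.24 over 9 sums.

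**Figure D5:**
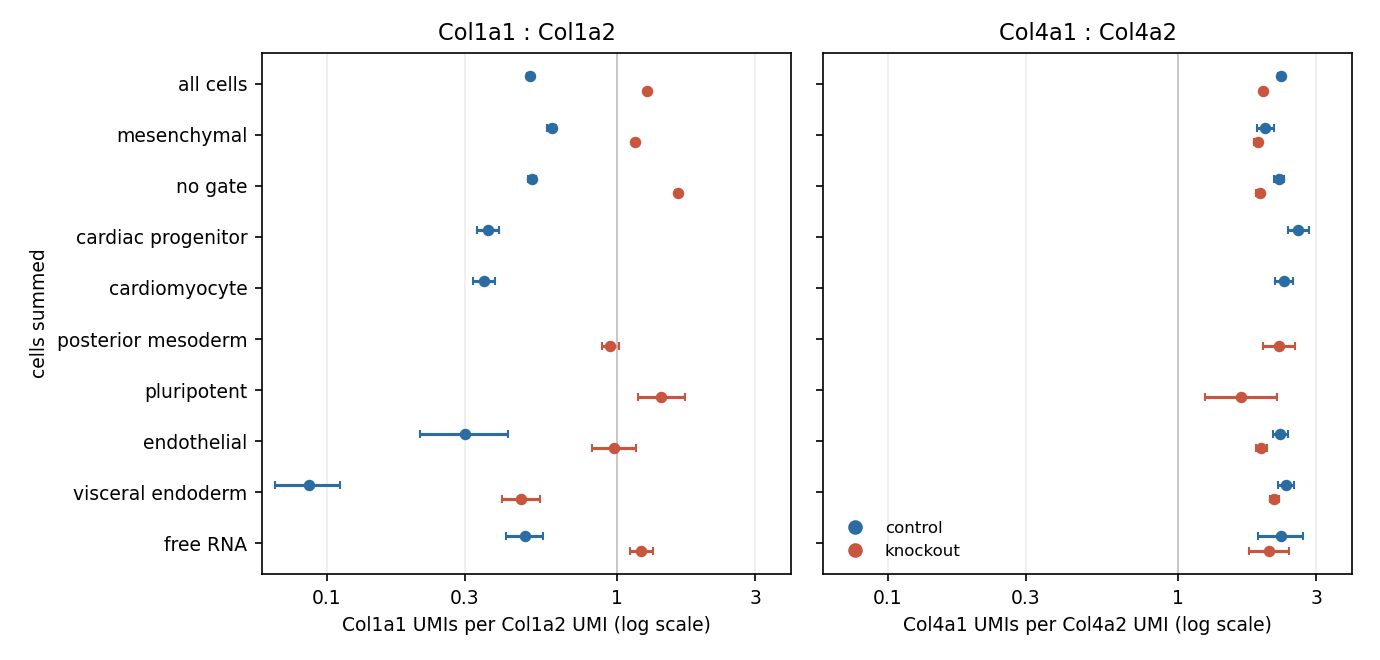
UMIs of one chain per UMI of its partner chain (log axis) in each sum of cells and in free RNA, with exact 95% counting intervals. Col1a1 to Col1a2 is higher in the knockout in every sum found in both libraries, free RNA included. Col4a1 to Col4a2 stays between 1.65 and 2.61.

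Across single cells the pairs were read as rank correlations of thinned counts. The Spearman rho of thinned Col4a1 and Col4a2 counts was 0.53 over 107 control and 0.65 over 202 knockout visceral endoderm-gated cells, where both are abundant. It was 0.22 and 0.14 in endothelial-gated cells. Col1a1 and Col1a2 had 0.33 and 0.34 in mesenchymal-gated cells. These values describe sparse counts of cells that share a library. Sparse counts lower rho, so the values do not show how closely the chains are linked.

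Collagen chains need partners to be folded, exported, cut, linked and bound, and 6 lists of such genes were read over all cells. Of 90 listed genes 89 were among the features and 64 were measured, 27 of them higher in the knockout by 1.5-fold or more and 3 lower, beside the 12.7% and 6.75% of all measured genes. After the length and GC correction 26 were higher and 3 lower, of which Mmp15 and Fbn2 were lower in both counts, Pcolce only before and Lama5, a laminin chain, only after. Enzymes that hydroxylate and sugar-coat the chains had 3 of 13 higher and none lower, with a median log2 ratio of 0.33. P4ha1, a catalytic subunit of prolyl hydroxylase, stood at 42.4 against 94.8 CPM and its partner P4hb at 223 against 374 CPM. P4ha2, another catalytic subunit, stood at 22.1 against 42.2 CPM, while Plod2, a lysyl hydroxylase, stood at 82.1 against 121 CPM and Ppib, a proline isomerase, at 597 against 644 CPM.

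Folding and export genes had 6 of 13 higher and none lower, with a median of 0.54. Serpinh1, the collagen chaperone Hsp47, stood at 927 against 1218 CPM, within 1.5-fold. The chaperone Hspa5 stood at 723 against 1454 CPM and Pdia4 at 108 against 169 CPM, and Tmem131, which helps load collagen for export, stood at 18.8 against 39.8 CPM. Of 8 measured genes that cut propeptides and crosslink fibres, 2 were higher and 1 lower. Loxl2, a crosslinking oxidase, stood at 39.4 against 97.2 CPM, Adamts2, a procollagen protease, at 36.7 against 70.8 CPM and Pxdn, which crosslinks type IV collagen, at 53.3 against 74.2 CPM. The lower one, singled out after its value was seen, was Pcolce, which enhances propeptide removal, at 53.9 against 34.5 CPM. Its log2 ratio was -0.63, and -0.38 after the length and GC correction, under 1.5-fold.

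Of 4 measured receptor genes 2 were higher and none lower. Itgb1, the shared subunit of collagen-binding integrins, stood at 256 against 623 CPM and Itga1 at 28.6 against 37.4 CPM. Ddr1, a collagen-binding kinase, stood at 23.4 against 22.0 CPM, and Mrc2, an uptake receptor, at 8.58 against 13.7 CPM. Breakdown genes split, with 2 of 9 higher and 1 lower and a median of -0.02. Mmp2, a gelatinase, stood at 62.1 against 96.5 CPM and Mmp14, which activates it, at 65.7 against 65.0 CPM. Timp3, an inhibitor of such proteases, stood at 42.1 against 79.5 CPM, and Mmp15 was lower at 12.2 against 6.08 CPM. Ctsb, a lysosomal protease, stood at 109 against 96.7 CPM.

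Matrix partners were the list of the 6 with the largest median, 1.31, with 12 of 17 higher and 1 lower, Fbn2, a fibrillin, at 134 against 78.1 CPM, singled out after its value was seen. Fn1, on whose fibrils collagen assembles, stood at 363 against 940 CPM, and Sparc, a collagen-binding matrix protein also listed above as a parietal endoderm marker, at 667 against 1063 CPM. Lama4, a laminin chain of vessel walls, stood at 9.53 against 51.5 CPM and Smoc2 at 92.7 against 267 CPM. Postn had the largest ratio of the list, at 19.2 against 160 CPM, and with Dcn and Lum it is also a marker of the mesenchymal gate. Within mesenchymal-gated cells 8 of 18 measured matrix partners were higher and 1 lower, beside 11.1% and 3.55% of all genes measured there. Their median log2 ratio was 0.39, with Fn1, Lama4 and Postn at 1.04, 1.90 and 1.36. For the 6 lists together the median was 0.48 over all cells. It was 0.18 within both mesenchymal-gated and endothelial-gated cells and 0.03 within visceral endoderm-gated cells.

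The 21 collagens that were not measured comprised 3 fibrillar, 3 basement membrane and 15 other chains. All 44 collagens had at least 1 UMI in both libraries, and the highest level among these 21 was 3.51 CPM, that of Col8a2 in the knockout. Fewer than 10 UMIs in both libraries were found for 3 of them, Col6a5, Col10a1 and Col19a1. Col10a1, a chain of hypertrophic cartilage, had 1 UMI in each. The type IV chains Col4a3 and Col4a4, known from the mature kidney filter, stood at or under 0.65 CPM in both libraries.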

How the data were processed

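Single-cell RNA-seq counts of 1 control and 1 Zbtb16 knockout library were analysed. The authors deposited raw UMI counts per gene and barcode, unfiltered and not normalised, in the 10x matrix form that Cell Ranger writes, per the file headers. The tools named per the submitters' processing notes are R 4.1.1 and Cell Ranger, with GRCm39 and mm39 as builds. Cells are barcodes with at least 15000 UMIs and at most 10% mitochondrial UMIs, which left out 24 control and 50 knockout barcodes at that depth.

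UMIs were summed per library or state and turned into CPM. Ratios are log2 of CPM plus 1, with exact Poisson or Clopper-Pearson intervals. Measured means at least 5 CPM in either library, so a gene can pass through the library where it is high. A difference is called by size at 1.5-fold. States required a summed marker level of 1000 CPM (endothelial, visceral endoderm, pluripotent, erythroid, cardiac progenitor), 4000 CPM (cardiomyocyte) or 500 CPM (mesenchymal, posterior mesoderm), and at least 3 markers seen. These levels were set after the marker sums were seen and without reading a collagen. Cells that passed several separate gates (10 control, 5 knockout) were set apart, and no doublet caller was run. Shares of cells with a UMI were taken after thinning each cell to 15000 UMIs, which left out no cell. The longest coding transcript of GENCODE M21 (assembly GRCm38, no coordinates used) gave length and GC content for 99.97% of measured genes, with lowess trends (statsmodels 0.14.6). Sums were computed with Python 3.11.15 and scipy 1.17.1, and scaling factors with edgeR 4.0.16 and DESeq2 1.42.0, with no count test.

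Collagens with at least 20 CPM in a library or 50 CPM in a state of at least 50 cells are named with values. Of each role list the 3 highest and the 2 largest ratios among measured members are named. The members and lists were chosen with earlier results of these data known. Alternatives changed the cell filters, the scaling, the prior, the filter on low levels, the gates and the length and GC correction, 1 at a time. The method was tested on simulated data.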

Additional observations from a re-analysis of the deposited data

Results flagged for a closer look

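Col18a1 stood higher in the knockout library in endothelial-gated cells and lower in visceral endoderm-gated cells, and its log2 ratios in these states differed by 1.71. Col14a1 stood higher in mesenchymal-gated and lower in endothelial-gated cells, at 3.16 against 6.27 CPM and 6.57 against 2.1 CPM, and its log2 ratios differed by 2.09. Both differences between states were singled out because the ratios passed 1.5-fold in opposite directions. After the length and GC correction the mesenchymal ratio of Col14a1 went from 0.81 to 0.44, under 1.5-fold, while its endothelial ratio was -1.62. Within the split of the mesenchymal gate Col14a1 stood at 2.70 against 4.59 CPM in Lum-led, 4.70 against 6.68 CPM in Postn-led and 1.89 against 1.98 CPM in Tdo2-led cells. The knockout gate also held Prrx1-led cells, at 73.4 CPM, and Pdgfra-led cells, at 9.39 CPM, which the control had too few of to compare. The differences were not tested, since each state has 1 library per group.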

How the results depend on the processing

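No paired analysis was possible because there is 1 library per group and nothing was tested. The basement membrane median over all cells (0.82) was 0.89 with at least 30000 UMIs, 0.66 with at most 5% mitochondrial UMIs, 0.86 with DESeq2 size factors, 0.74 with a prior of 5, 0.79 with a 20 CPM filter, 0.57 after the length and GC correction, 0.79 without the 5% of cells with the most UMIs and 0.73 with shared states weighted as in the control. The fibrillar median (0.58) was 0.53 both with at least 30000 UMIs and with at most 5% mitochondrial UMIs, 0.62 with DESeq2 size factors, 0.54 with a prior of 5, 1.08 with a 20 CPM filter, 0.28 after the correction and 0.21 with weighted states. The median of other chains (0.43) was 0.24 with at most 5% mitochondrial UMIs, 0.33 with equal weight per cell and 0.33 with a prior of 5. The log2 ratio of collagen's share of UMIs (0.75) was 0.70 with at least 30000 UMIs, 0.64 with at most 5% mitochondrial UMIs, 0.77 with TMM scaling, 0.79 with DESeq2 size factors, 0.77 with equal weight per cell and 0.42 with weighted states. This share has no length-corrected value. With a 20 CPM filter, which tests fewer genes, 7 collagens were higher and 0 lower, and with a prior of 5 only 1 was lower. In endothelial-gated cells the basement membrane median (0.79) was 0.51 after the correction. In visceral endoderm-gated cells it (0.13, the ratio of Col4a6, which rests on 47 and 74 UMIs) was 1.11 with the 20 CPM filter and reversed to -0.16 after the correction. It was also 0.60 without the 5% of cells with the most UMIs, 0.52 with at most 5% mitochondrial UMIs, 0.44 with equal weight per cell, 0.084 with a prior of 5, 0.080 with stricter gates, 0.075 with at least 30000 UMIs and 0.044 with free RNA subtracted. In mesenchymal-gated cells the fibrillar median (0.42) was 0.35 with at least 30000 UMIs, 0.24 with at most 5% mitochondrial UMIs, 0.15 with a 1 CPM filter, 0.49 with a 20 CPM filter, 0.046 after the correction and 0.49 with looser gates. Where no fewer genes or cells entered, the cause was not tested. Counting precision is ample for the large sums, but 1 library per group leaves the spread between cultures unmeasured.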
